A study of Mus musculus with 2 samples.

Results

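The 10 genes described here belong to the circadian clock and were measured in MIN6 cells, a mouse insulinoma line that makes insulin and stands in for the pancreatic beta cell. They are Clock, Arntl, Per1, Per2, Per3, Cry1, Cry2, Nr1d1, Nr1d2 and Dbp, and they were chosen by gene symbol. All 10 were found among the 21542 genes of the deposited table, each once, and all 10 had a mean of at least 100 reads. One library came from cells that received a control vector and 1 from cells that received a GR vector, a plasmid that expresses the glucocorticoid receptor (GR, the product of Nr3c1). Both cultures are labelled with the strain C57BL/6 and were kept in 25 mM glucose and 15% serum. Per 3.5 cm dish, plasmid (4 ug) was brought in with a lipid reagent (4.8 ul). The share of cells that took up plasmid, the origin of the GR cDNA, any added steroid, and the hours from transfection or from the last medium change to harvest are not stated in the sources used here. With 1 library per vector no difference below has a replicate check, and with 1 harvest per vector the data hold no time course.

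The mammalian clock is a feedback loop of transcription. The proteins of Clock and Arntl (also called Bmal1) pair and switch on the Per and Cry genes, whose proteins return to the nucleus and inhibit that pair. In a second loop the nuclear receptors of Nr1d1 and Nr1d2 (REV-ERB alpha and beta) repress Arntl, in competition with activators of the ROR family. Dbp is an output gene whose protein binds D-box elements. Islets and beta cells run such a clock, which times insulin secretion, and glucocorticoids acting through GR are known to induce Per1 and to set the phase of clocks in many tissues.

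Short DNA elements of the kinds through which these loops act can be looked for in the promoters, and 4 promoters with matches are shown. The elements are the E-box, a site for the Clock and Arntl proteins, the D-box, a site for Dbp, and a site for ROR and REV-ERB proteins. Whether the matches shown are bound was not tested. Promoter windows run from 250 bases before to 50 bases after an annotated start (RefSeq, GRCm38.p6). They were at hand for 9 of the 10 genes, in 13 windows, and Per2 had none. Sequences are written 5′ to 3′ on the strand of the gene. Capitals mark the E-box in Per1, the E-box and its variant in Cry1, the D-boxes in Per3 and TAGGTCA in Arntl, and other matches stay in lower case. For Per1, Cry1 and Per3 the 250 bases before a start are printed (chr11:69098699-69098948, plus strand; chr10:85185055-85185304, minus strand; chr4:151044666-151044915, minus strand), and for Arntl 30 bases behind its second start (chr7:113207530-113207559, plus strand).
Per1: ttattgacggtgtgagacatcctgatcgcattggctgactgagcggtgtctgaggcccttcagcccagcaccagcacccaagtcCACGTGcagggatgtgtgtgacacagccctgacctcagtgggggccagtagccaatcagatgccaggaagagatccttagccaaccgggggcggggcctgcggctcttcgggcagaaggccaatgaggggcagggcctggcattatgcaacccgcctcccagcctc
Cry1: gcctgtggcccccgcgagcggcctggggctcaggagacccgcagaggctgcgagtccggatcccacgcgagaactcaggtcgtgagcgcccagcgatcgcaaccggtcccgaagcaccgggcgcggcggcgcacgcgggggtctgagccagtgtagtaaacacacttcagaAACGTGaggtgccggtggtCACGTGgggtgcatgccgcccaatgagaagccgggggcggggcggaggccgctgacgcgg
Per3: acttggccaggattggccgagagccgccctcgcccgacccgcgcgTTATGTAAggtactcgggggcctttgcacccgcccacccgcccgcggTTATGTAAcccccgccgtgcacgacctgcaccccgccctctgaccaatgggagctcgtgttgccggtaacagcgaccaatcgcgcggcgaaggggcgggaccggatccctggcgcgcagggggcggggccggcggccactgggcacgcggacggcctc
Arntl: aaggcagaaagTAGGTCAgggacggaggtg

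The E-box CACGTG was found 166 bases before a start of Per1 and 60 bases before that of Cry1, and it occurs in 7.15% of all 32851 windows. Its variant CACGTT, searched on both strands like every element here, lay 79 bases before the start of Cry1, where it reads AACGTG, and also in the windows of Cry2 and Nr1d1 (4.68% of all windows). The D-box TTATGTAA occurred at 2 places in Per3, 205 and 158 bases before the start, and in 0.938% of all windows. The element TAGGTCA began at base 31 behind a start of Arntl (2.61% of windows). It contains the shorter AGGTCA, which was also present in windows of Clock, Per1 and Nr1d2 (16.3% of windows), in Per1 on the opposite strand 137 bases before the start. The cAMP response element TGACGTCA (1.79% of windows) was in none of the 13. Of the elements bound by GR, neither the single AGAACA (19.0% of windows) nor the paired form, AGAACA followed after any 3 bases by TGTTCT (0.00913% of windows), stood in them. These matches describe letters in short windows and say nothing on binding, nor on enhancers farther away.

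Totals were 18537326 reads over genes for the control and 18525668 for the GR library. Nr3c1 had 2645 and 5202 reads, a fold of 1.97, so the library labelled with the GR vector held more of the targeted transcript. All 10 beta cell markers looked at had at least 100 reads in both libraries and together took 4.96% and 4.70% of reads. Of other endocrine markers, 3 of 5 were measured and summed to 644 control and 758 GR vector reads, with Gcg the only one at 100 reads or more in both. The 1 of 5 exocrine and duct markers measured had 7 and 13 reads, 3 of 4 fibroblast and endothelial markers summed to 66 and 74, and 2 of 3 immune markers to 26 and 22. The part of these shifts in the results was not tested. In a bulk culture, fewer cells expressing a gene and less of its RNA per cell cannot be told apart. Folds below are GR vector over control vector after TMM scaling (a trimmed mean that sets the libraries to a common size), with exact 95% intervals. A gene was called where its reads differed by an exact binomial test (two-sided; Benjamini-Hochberg over the 21542 genes of the table; adjusted p under 0.05). Interval and test cover counting error only and compare these 2 libraries, not the conditions.

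Transcripts of all 10 clock genes were present, and they differed little between the vectors. Folds of the 10 genes lay between 0.909 for Per2 and 1.105 for Clock, with 6 genes above 1 and 4 below. Clock was the 1 gene called by the exact test, higher with the GR vector. That is 1 of 10 beside 2.72% of all genes called, 1.58% higher and 1.14% lower. Among the 7934 genes with as many reads as the clock genes (means from 252.5 to 2860.5), 3.30% were called. At an unadjusted p under 0.05 the exact test had Clock and Nr1d2, 2 of 10 beside 17.9% of the 7934 genes. None of the 10 passed 1.2-fold, beside 5.04% of the 11070 genes that average at least 100 reads and 2.71% of the 7934. Clock and Per2 passed 1.1-fold in either direction, 2 of 10 beside 18.4%. The shares past 1.1-fold and at the unadjusted p are near their backgrounds, and a single call is the smallest step that a count over 10 genes can take.

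Clock encodes a transcription factor with a basic helix-loop-helix and PAS domains, the partner of the Arntl protein. Its gene lies at chromosome 5, 76209868 to 76304792, on the minus strand. Its reads numbered 2722 (control) and 2999 (GR vector). The fold was 1.105 (95% interval 1.05 to 1.16; adjusted p 0.0127 in the exact binomial test). Its log2 fold change of 0.14 was larger in size than that of 83.2% of the 7934 genes with as many reads. Between these libraries, log2 fold changes fell with the GC content of the transcripts, and at 41.4% GC Clock was the most AT-rich of the 10. With that trend removed its fold was 1.06 (1.00 to 1.11) and its adjusted p in the exact test 0.416, so the call was lost. Only 0.0800% of its 31-mers (stretches of 31 bases) occur in another annotated gene.

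Arntl, the partner of Clock and the 1 clock gene without which mouse rhythms stop, was not called. Arntl (chromosome 7, 113207465 to 113314126) had 805 and 777 reads, a fold of 0.968 (0.876 to 1.07) and an adjusted p of 0.865 in the exact test. By length-scaled level (reads per kilobase of gene, scaled to library size) Clock stood at 1.85 times Arntl with the control and 2.12 times with the GR vector. Their paralogs were scarce. Npas2, which can replace Clock, had 12 and 11 reads, and Arntl2 had 24 and 13.

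The Period genes, targets and inhibitors of the activator pair, went in no common direction. Per1 (chromosome 11, 69095217 to 69109960), known for its induction by glucocorticoids, had 895 and 915 reads and a fold of 1.03 (0.934 to 1.13). The interval leaves out a rise of 1.2-fold, by counting error alone. Per2 (chromosome 1, 91415982 to 91459324), also a known GR target, had 620 and 562 reads and the lowest fold of the 10, at 0.909 (0.810 to 1.02). It did not pass the exact test (adjusted p 0.520). Per3 (chromosome 4, 151003652 to 151044665), the member least needed for rhythms, had 337 and 324 reads, a fold of 0.964 (0.825 to 1.13). None of the 3 was called. By length-scaled level Per1 exceeded Per2 by 1.501 times with the control and 1.69 times with the GR vector, and Per2 exceeded Per3 by 3.02 and 2.85 times.

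The cryptochromes, the stronger inhibitors of the pair, lay on opposite sides of 1, both within counting error of it. Cry1 (chromosome 10, 85131700 to 85185064) had 622 and 657 reads and a fold of 1.06 (0.948 to 1.18). Cry2 (chromosome 2, 92403646 to 92434043) had 1495 and 1427 reads and a fold of 0.957 (0.890 to 1.03). Their adjusted p in the exact test was 0.738 and 0.667. The length-scaled level of Cry2 was 1.27 times that of Cry1 in the control library and 1.15 times with the GR vector. An opposite-strand transcript, D930015M05Rik (74 and 57 reads), covers 4.67% of the exonic bases of Cry2.

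**Figure D1:**
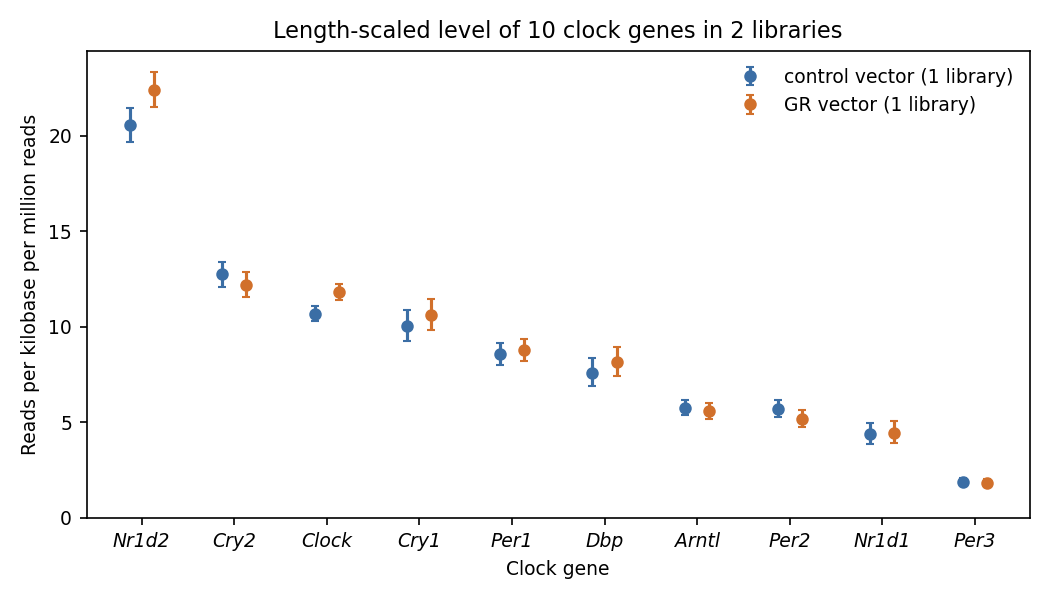
Length-scaled level (reads per kilobase of gene and per 1000000 reads, vertical axis) of each clock gene in the control vector library (blue) and the GR vector library (orange). Bars are exact 95% Poisson intervals of the reads. Nr1d2 is highest (20.6 and 22.4) and Per3 lowest (1.89 and 1.82) in both.

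The REV-ERB genes differed far more from each other than between the vectors. Nr1d2 (chromosome 14, 18204054 to 18239127) had 2064 and 2244 reads, a fold of 1.09 (1.03 to 1.16). Its interval lay above 1, but it missed the adjusted threshold (adjusted p 0.107 in the exact test). At 45.4% it was the second most AT-rich of the 10, and with the GC trend removed its fold was 1.06 (0.996 to 1.12). Of the 31-mers of Nr1d2, 9.51% occur in other annotated genes. Nr1d1 (chromosome 11, 98767932 to 98775333) had 251 and 254 reads, a fold of 1.01 (0.849 to 1.21). By length-scaled level Nr1d2 exceeded Nr1d1 by 4.68 times with the control and 5.03 times with the GR vector. The exons of Nr1d1 overlap those of Thra, a thyroid hormone receptor gene on the opposite strand (878 and 890 reads), over 8.55% of their bases. Whether reads were counted by strand is not stated, so reads in that overlap cannot be told apart.

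Dbp (chromosome 7, 45705088 to 45710203), the D-box activator that swings with the clock in many tissues, had 422 and 453 reads. The fold was 1.08 (0.941 to 1.23) and the adjusted p 0.704 in the exact test. Its transcripts are GC-rich (56.7%), and with the trend removed the fold was 1.11 (0.970 to 1.27). Among the 10 clock genes Dbp has the largest overlap with another gene, 18.0% of its exonic bases with Sphk2 on the opposite strand. Sphk2, a sphingosine kinase gene, had 1231 and 1197 reads, more than Dbp itself, so the reads of Dbp are uncertain.

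**Figure D2:**
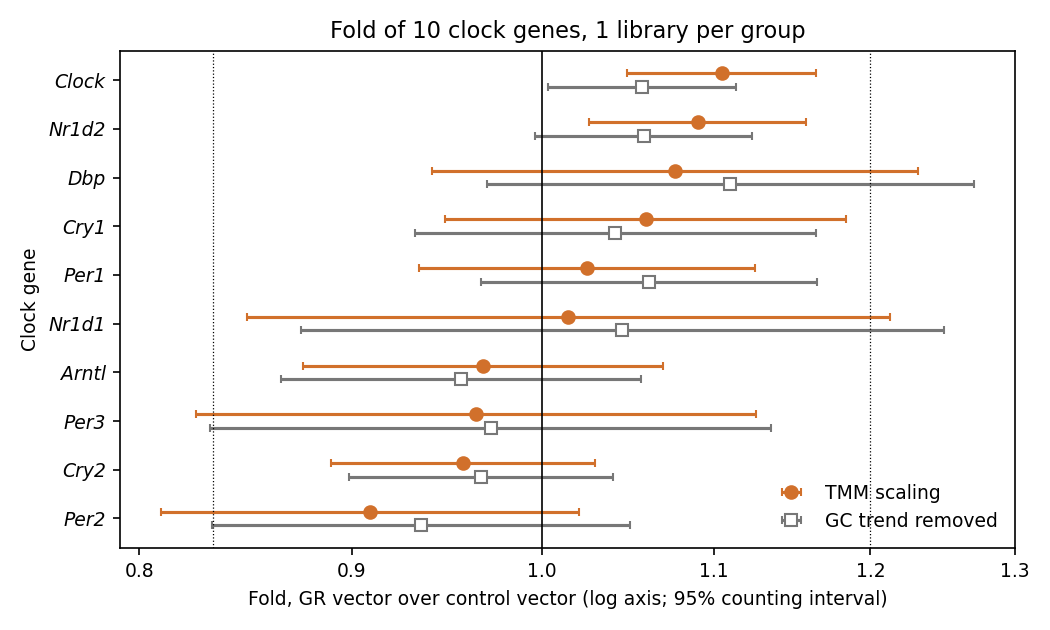
Fold of each clock gene, GR vector over control vector, on a log axis with 95% counting intervals, after TMM scaling (filled circles) and with the trend over GC content removed (open squares). Dotted lines mark 1.2-fold in each direction. With TMM scaling only the intervals of Clock and Nr1d2 lie clear of 1, and with the trend removed that of Clock alone does.

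The counting intervals of most of these genes were narrow. In 6 of the 10 (Clock, Arntl, Per1, Cry1, Cry2 and Nr1d2) the whole 95% interval lay inside 1.2-fold in both directions. The 4 with fewer reads reached just past it, with a lower bound of 0.810 for Per2 and 0.825 for Per3 and an upper bound of 1.21 for Nr1d1 and 1.23 for Dbp. The 6 are thus those with the most reads, and the share of other genes with such intervals was not counted. Across the 7934 genes of like reads, differences between the libraries had an SD of 1.63 times their counting error. This plain SD takes in some genes with very large differences, which raise it above the spread of a typical gene. Counting intervals still understate the spread of these 2 libraries. The median log2 fold change was 0.03 over the 10 clock genes and 0.0030 over those 7934 genes. Their median size without sign was 0.07 in both sets. In sum the 10 genes took 10233 control reads and 10612 GR vector reads.

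**Figure D3:**
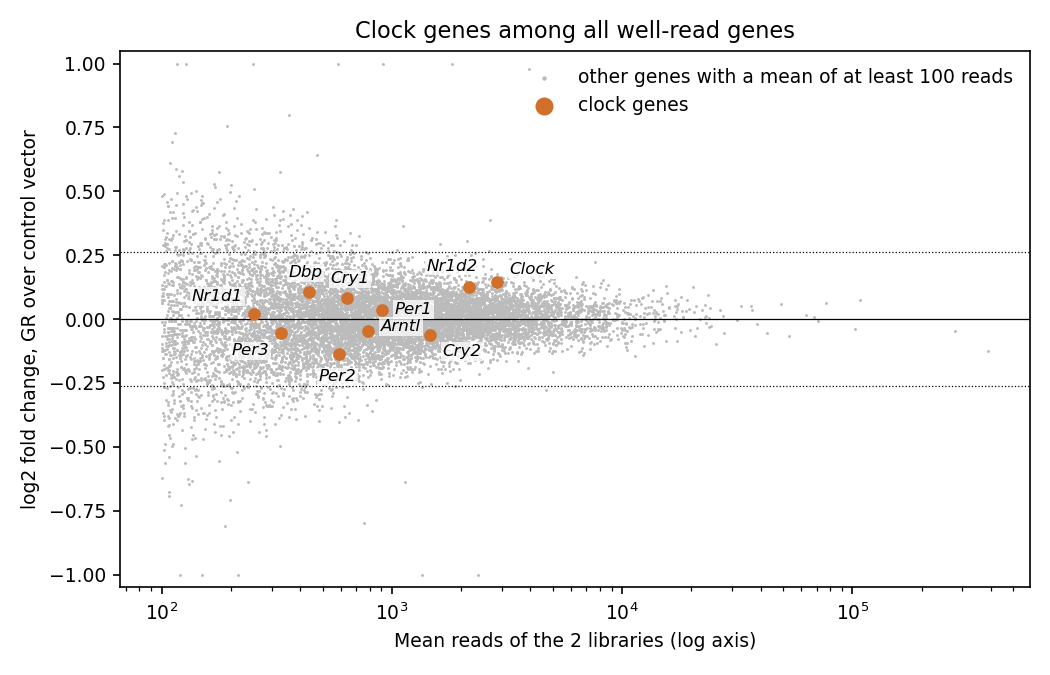
log2 fold change (GR over control vector) against mean reads of the 2 libraries for the 11070 genes that average at least 100 reads (grey) and the clock genes (orange). Dotted lines mark 1.2-fold, and 11 genes beyond a log2 fold change of 1 in either direction are drawn at the edge. All 10 clock genes lie inside the dotted lines.

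The order of the 10 by length-scaled level was the same in both libraries. With the control vector it ran from Nr1d2 (20.6, higher than 85.9% of genes with a read) over Cry2 (12.7), Clock (10.7), Cry1 (10.0), Per1 (8.56), Dbp (7.60), Arntl (5.77), Per2 (5.71) and Nr1d1 (4.40) to Per3 (1.89). Neighbours whose counting intervals overlapped there were Clock and Cry1, Per1 and Dbp, and Arntl and Per2. With the GR vector Cry2 and Clock (12.2 and 11.8) overlapped as well, and so did Per2 and Nr1d1 (5.19 and 4.46). Lengths are those of the deposited table, which for the 10 genes equal the merged exons of GENCODE M21. Merged exons join all annotated transcripts of a gene and can be longer than the transcript the cells make. The counting intervals do not cover this, so the order and the ratios between genes are less certain than they show.

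The folds were set beside the GC content of the transcripts. The trend, fitted over genes averaging 50 or more reads, stood at 0.06 on the log2 scale for the GC content of Clock and at -0.05 for that of Per1, the most GC-rich of the 10 at 58.8%. With the trend removed the median log2 fold change of the 10 went from 0.03 to 0.06, still with 6 genes above 0 and 4 below. The difference shrank for Clock, Nr1d2, Per2, Per3, Cry1 and Cry2, and it grew for Dbp, Per1, Nr1d1 and Arntl.

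**Figure D4:**
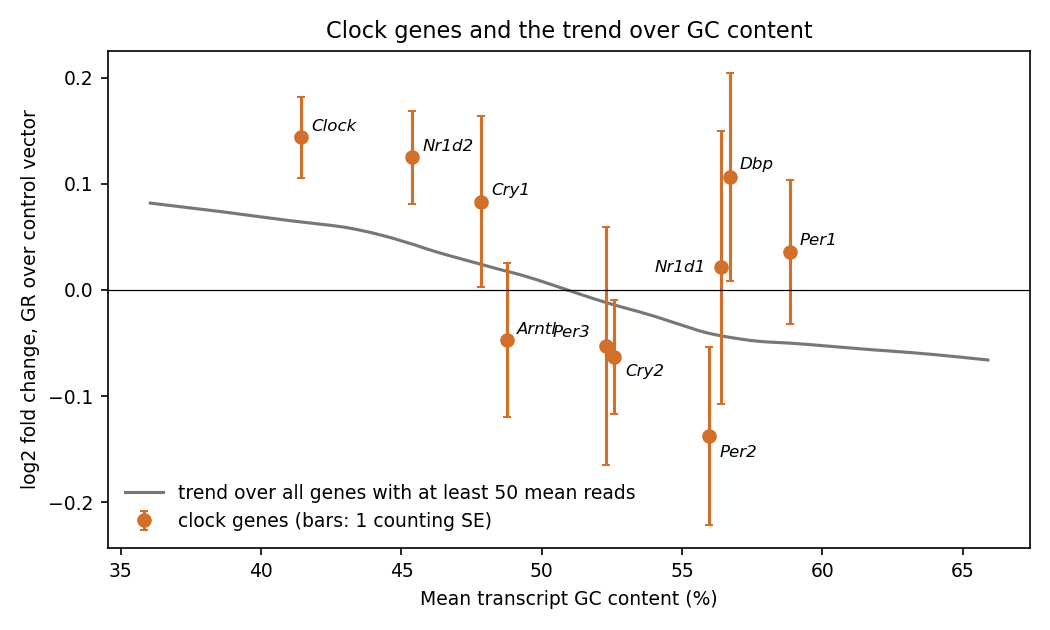
log2 fold change of each clock gene (orange, bars of 1 counting SE) against the mean GC content of its annotated transcripts in percent. The grey line is the trend over all genes with at least 50 mean reads. Clock lies at 41.4% GC on the side where the trend is above 0, and Per1 at 58.8% where it is below.

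A wider list of 37 genes that act with the clock held 34 genes of the table, 31 of them with a mean of at least 100 reads. The exact test called 2 of the 34 higher and 0 lower, beside 1.58% and 1.14% of all genes, with 18 above 0 and 16 below and a median log2 fold change of 0.0047. Among the transcription factors and repressors of the secondary loops, Rora was called higher. It encodes the ROR activator that competes with REV-ERB proteins at elements like the one printed for Arntl. Rora had 1084 and 1275 reads, a fold of 1.18 (1.09 to 1.28; adjusted p 0.00641 in the exact test), and with the GC trend removed 1.17 (adjusted p 0.0187). The best-read genes of this group were Tef, a relative of Dbp (1748 and 1777 reads, fold 1.02), and Bhlhe41, a repressor of the activator pair (1595 and 1493, fold 0.939). Rorb, Fbxl21 and Prkaa2, also on the list, were not found by symbol among the genes with values, so they were not analysed. Ciart, a repressor of the activator pair, had 607 and 519 reads and the lowest fold among the 31 well-read genes, 0.858 (0.761 to 0.966). It did not pass the exact test (adjusted p 0.171), and it shares 20.8% of its 31-mers with other genes. Bhlhe41 shares 17.7%, and Gm43909 on the opposite strand (21 and 18 reads) covers 19.0% of its exonic bases. Ciart was singled out after its value was seen.

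Among 10 measured kinases and ubiquitin enzymes, Csnk2a1, a catalytic subunit of casein kinase 2, was called higher. It had 2103 and 2508 reads, a fold of 1.196 (1.13 to 1.27; adjusted p 6.66e-07 in the exact test), and 1.16 with the GC trend removed (adjusted p 0.000328). It shares 34.7% of its 31-mers with other annotated genes, so its count is uncertain. Csnk2b, the regulatory subunit of the same kinase, had 1557 and 1457 reads (fold 0.938, 0.873 to 1.01). It was named after its value was seen. The best-read genes were Csnk1d, a casein kinase that marks PER proteins (5522 and 5380 reads, fold 0.977), and Gsk3b (5254 and 5463, fold 1.04). Neither of them was called. The 14 cofactors had 0 calls, and their folds ran from 0.943 for Hdac3 to 1.08 for Nampt. Of these the best-read were Nono (16716 and 16818 reads, fold 1.01; 22.0% of its 31-mers shared) and Ncor1, the co-repressor of REV-ERB proteins (7432 and 7697, fold 1.04).

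**Figure D5:**
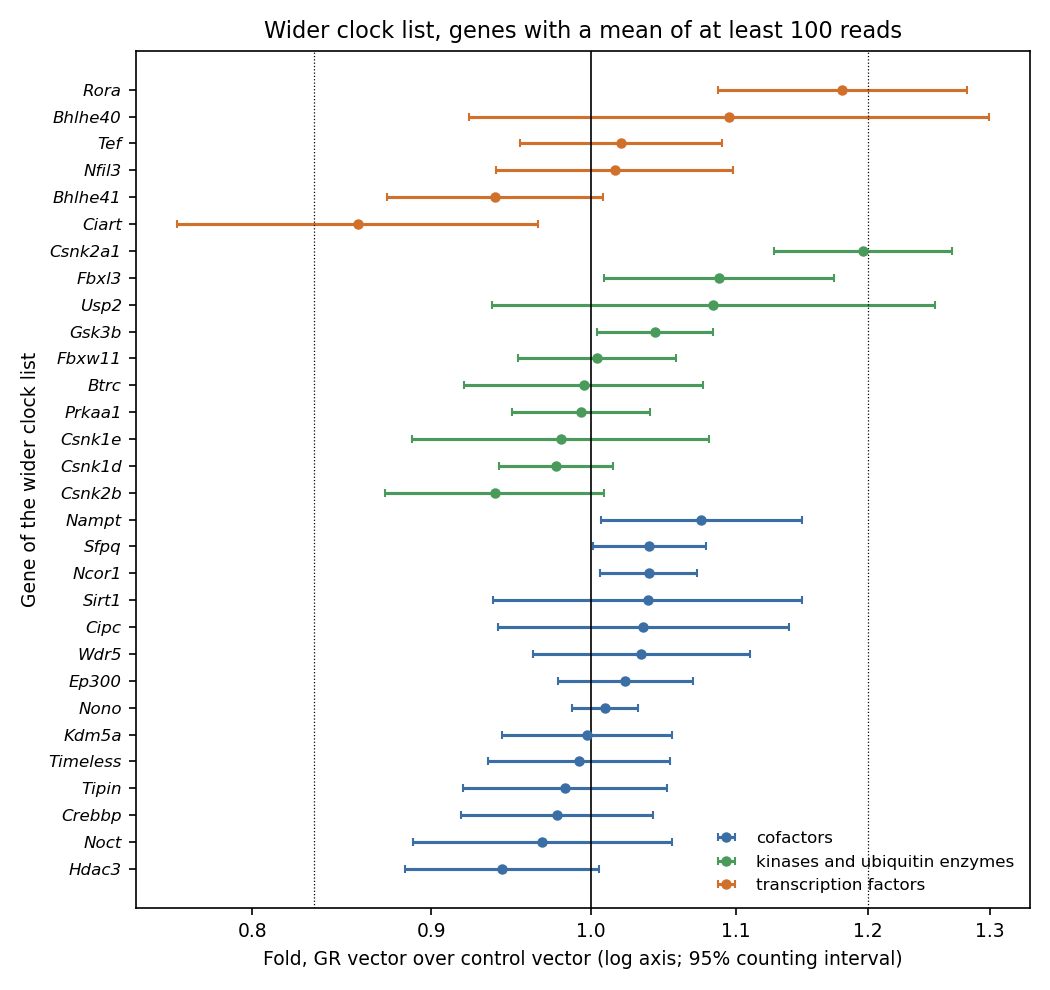
Fold, GR vector over control vector (log axis, 95% counting intervals), of 30 of the 31 genes of the wider list that average at least 100 reads, coloured by role. Rora and Csnk2a1 stand highest, at 1.18 and 1.196, and Ciart lowest, at 0.858.

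In the authors' deposited table all 10 clock genes had an adjusted p of 1 (the lowest unadjusted p was that of Clock). That table called 4 of 21542 genes (0.0186%) at an adjusted p under 0.05, and its list of 233 changed genes held 0 of the 10. Its p-values equal those of an exact test in edgeR with a preset dispersion of 0.04, a coefficient of variation of 20%, and the 10 clock genes had unadjusted p-values from 0.728 to 0.979 there. The authors' deposited enrichment report for the GR vector held 307 sets. Its circadian rhythm set (30 genes) had an enrichment score of 0.684, 6th by that score. The normalized score of this set was 1.02, 33rd of the 307, with an FDR q of 0.939. The circadian entrainment set (97 genes) of the same deposited report had a normalized score of 1.00, 151st of the 307, and an FDR q of 0.980. By enrichment score it was 241st. Which genes made up these sets was not analysed here.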

How the data were processed

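RNA was sequenced from 1 library per vector. The authors deposited, per gene, a scaled read signal for each library, a log2 fold change and p-values, per the file headers; the submitters' processing notes name DESeq2 1.10.1. They also deposited gene set enrichment scores with p-values, per the file headers. Aligner, counter, strand handling and genome build are not stated in the sources used here. Signals were divided by the value of 1 read: 99.99% came out whole within 0.01 reads, and the largest distance was 0.0239. The recovered reads were used for TMM scaling in edgeR 4.0.16 (DESeq2 1.42.0 size factors as an alternative), the exact binomial test and Clopper-Pearson intervals in SciPy 1.17.1. The edgeR exact test with preset dispersion differed from the deposited p by at most 4.45e-08 over all genes. For GC content, a lowess curve (span 0.3) of log2 fold change on mean transcript GC in GENCODE M21 was subtracted. Of the gene identifiers 21516 occur in M21 (GRCm38), 96.8% of them with the same coordinates, as had all 10 clock genes. Reads per gene limit the precision, and intervals cover counting error only. The test was tried first on simulated reads that held counting error only, without the extra spread seen between these 2 libraries. The clock genes, the wider list, the markers and the alternatives were chosen with earlier results of these data known. Named by rule were all 10 clock genes, Nr3c1, each called gene of the wider list and the 2 best-read genes of each of its roles. From the wider list Ciart, Csnk2b, Hdac3 and Nampt were named besides, after their values were seen. Genes alike in pattern were not sought, since 2 libraries give 1 ratio per gene. One gene of the wider list that averages over 100 reads enters the list's counts but is neither drawn nor reported here.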

Additional observations from a re-analysis of the deposited data

How the results depend on the processing

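The 1 call among the 10 clock genes, Clock, was lost with the GC trend removed (0 calls) and at an adjusted p under 0.01 (0 calls). It held with scaling by total reads, with DESeq2 size factors and with the adjustment run only over genes averaging at least 10 reads. The number of clock genes past 1.2-fold was 0 under both scalings, with the GC trend removed and at a limit of 1.5, and became 2 at a limit of 1.1. The 10 log2 fold changes kept their sign under both scalings and with the GC trend removed, and the 2 calls of the wider list were 2 under each alternative. The medians of both lists moved by less than the median counting error of a single gene, a wide yardstick for a median over a list. With the GC trend removed, the median of the 10 clock genes went from 0.03 to 0.06. That of the wider list went from 0.0047 to -0.0059. No library could be left out and no paired analysis was possible because each group has 1 library.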
